A study of Mus musculus with 68 samples.

Results

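The nuclear-encoded genes of the mitochondrial respiratory chain and ATP synthase were followed through red cell formation in mouse bone marrow. Members were taken by symbol: every gene of the count tables that begins with Nduf, Uqcr or Atp5, or with Cox and a digit from 4 to 8, together with Sdha, Sdhb, Sdhc and Sdhd, and without pseudogenes. This gave 92 of the 24059 genes. Complex I had 43 members, of which 7 were core subunits, 29 accessory subunits and 7 assembly factors, which build the complex without staying in it. Complexes II, III, IV and V had 4, 8, 20 and 17 members. The symbols also take in 8 tissue-restricted paralogs of complex IV subunits, the supercomplex factor Cox7a2l, and Atp5s and Atp5sl, which are not ATP synthase subunits.

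The study sequenced RNA of sorted bone marrow cells in 68 libraries. A stage series of 38 libraries, with no genotype in the labels, held 3 BFU-E, 5 CFU-E, 7 ERY-I, 4 ERY-II, 4 ERY-III, 4 ERY-IV, 7 ERY-V and 4 ERY-VI libraries. BFU-E and CFU-E are the early and late colony-forming erythroid progenitors. The labels describe ERY-I as ProE, ERY-II as BasoE, ERY-III as PolyE, ERY-IV as OrthoE, ERY-V as Retic and ERY-VI as RBC, the successive erythroblasts, reticulocytes and red cells. A knockout series held 3 WT and 3 GS-KO libraries in each of 5 gates: BFU-E and CFU-E, and the wider erythroblast and later gates named ERY-I-II, ERY-III-VI and then ERY-V-VI. The gate titled ERY-III-VI carries the source name PolyE/OrthoE. GS is not spelled out in the labels and was read here as the enzyme of the gene Glul. Strain, age, the knocked-out allele, any driver of the deletion and pooling of mice were not given in the sources used here.

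Complexes I and II pass electrons from NADH and succinate to coenzyme Q, complex III passes them on to cytochrome c, and complex IV hands them to oxygen. The proton gradient that complexes I, III and IV build drives complex V, the ATP synthase. Erythroid progenitors and erythroblasts depend on mitochondria for haem synthesis, and reticulocytes clear their mitochondria as they mature.

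Total counts were 1630863 to 11472763 a library in the stage series and 3131142 to 15806844 in the knockout series. The stage series fell into 2 kinds of library. The 3 BFU-E libraries and replicates 1 to 3 of CFU-E, ERY-I and ERY-V had counts on Y-linked genes, and the others had counts on Xist. All libraries of the knockout series were Y-positive, with 115.9 to 300.8 CPM on Y-linked genes and at most 6.04 CPM on Xist. Within the Y-positive triplicates genes varied by 2.03 to 26.3% between libraries (biological coefficient of variation), against 16.5 to 57.9% in the Xist-positive libraries and 2.09 to 13.7% in the knockout series. The labels do not say that replicates came from separate mice, so p-values measure how far these libraries spread, and that spread may be technical. All 10 erythroid marker genes were detected in every group, with summed levels from 1733 CPM (counts scaled to a library total of 1000000) in a BFU-E library to 573629 CPM in an ERY-VI library. The 10 neutrophil markers summed to between 13692 and 14088 CPM in replicates 1 to 3 of ERY-I and to between 2764 and 2781 CPM in those of ERY-V, the Y-positive ones. Of the Xist-positive libraries, 4 passed 1000 CPM: ERY-I replicate 5 (1278), ERY-II replicate 2 (2108), ERY-III replicate 2 (1208) and ERY-V replicate 5 (3445 CPM). In the knockout series these markers summed to 26.1 to 663 CPM in WT and to 4364 to 13669 CPM in GS-KO libraries. Markers of other cells were present too. In the Y-positive ERY-I libraries macrophage markers summed to 1740 to 1792 CPM and B lineage markers to 480 to 502 CPM. B lineage markers reached 242 CPM in an ERY-II library, and macrophage markers were at 427 to 513 CPM in the Y-positive ERY-V libraries.

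Of the 92 members, 84 were abundant enough to be tested in the earliest steps. Ndufs5 had no count in any library. It is a standard accessory subunit of complex I with 1 near-identical copy, and whether its reads were lost to that copy was not tested. Cox4i2, Cox6a2, Cox7b2, Cox8b, Cox8c and Ndufa4l2, the forms known from muscle, lung, testis or hypoxia, were at or near 0. Among these Cox8b had 28 counts over the 4 ERY-VI libraries, 2.55 CPM on average and 0 to 28.1% of its family. Per kilobase of mRNA, the F1 subunits of the ATP synthase that carry and face the catalytic sites, Atp5b and Atp5a1, led the members in BFU-E with 471 and 467 CPM per kilobase. Next came Atp5h, a stalk subunit, with 335, and Uqcrh, the hinge subunit of complex III, with 263 CPM per kilobase. Atp5b also led in CFU-E, at 866 CPM per kilobase. By ERY-IV the order had changed: Cox6a1, a complex IV subunit, stood at 496, above Atp5b at 348 and Uqcrh at 260.2 CPM per kilobase. The 22 members with a near-identical gene copy elsewhere, among them Atp5h, Atp5l, Atp5o, Uqcrb, Ndufb9 and Cox7b, may share reads with it, and their levels are uncertain.

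Summed over all members, the chain took 8656, 8688 and 8813 CPM in the BFU-E libraries. It took 11207, 11215 and 11254 CPM in the Y-positive CFU-E libraries and 19352 and 20796 CPM in the Xist-positive ones. In ERY-I the Y-positive libraries had 7023 to 7242 CPM and the Xist-positive ones 10699 to 13799 CPM, so the 2 kinds did not overlap in either gate. The sum was 3763 to 5052 CPM in ERY-II, 4731 to 6909 in ERY-III, 3172 to 4918 in ERY-IV, 1457 to 3269.9 in ERY-V and 842 to 2279 CPM in ERY-VI. The WT libraries of the knockout series followed the same course with little spread: 9606 to 9756 CPM in BFU-E, 11452 to 11551 in CFU-E, 9139 to 9218 in ERY-I-II, 4403 to 4446 in ERY-III-VI and 1919 to 2139.7 CPM in ERY-V-VI. That spread may be technical, since the labels do not say that replicates came from separate mice. Globin counts were 57.2 to 71.1% of an ERY-VI library, and with them left out the sum was 2010.0 to 6571 CPM in ERY-V and 1965 to 5656 CPM in ERY-VI, in ranges that overlap. In bulk samples such as these, fewer cells of a type and less RNA per cell cannot be told apart.

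**Figure D1:**
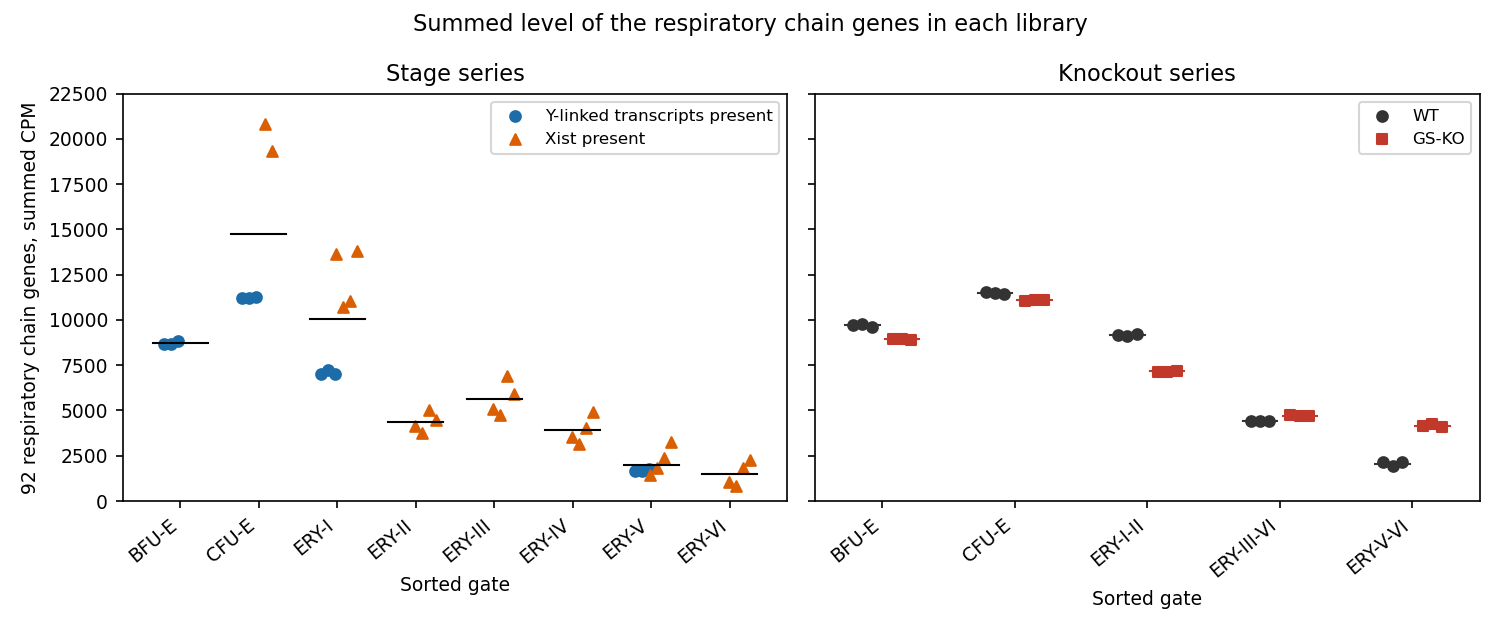
Summed level of the 92 respiratory chain genes in CPM by group, 1 point a library, for the stage series and for WT and GS-KO of the knockout series. The sum is highest in CFU-E (11207 to 20796 CPM in the stage series) and has its lowest library in ERY-VI (842 to 2279 CPM, globin counts included in the total); in CFU-E and ERY-I the Y-positive and Xist-positive libraries stand apart.

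Most members rose from BFU-E to CFU-E in WT. There 64 of 84 tested members were higher in CFU-E and 4 were lower, where 34.5% of all 10826 genes tested were higher and 36% lower. Calls are from edgeR's quasi-likelihood test with Benjamini-Hochberg adjustment over all genes tested, at an adjusted p under 0.05, and differences are log2 values after TMM scaling, which sets most genes to no change. The median difference of the members was 0.32, against -0.03 over all genes. All 4 complex II genes and all 8 complex III genes were higher, and so were 29 of 42 in complex I, 11 of 13 in complex IV and 12 of 17 in complex V.

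Ndufs1, the iron-sulfur core subunit that takes electrons from NADH oxidation, had 175, 177 and 174 CPM in WT BFU-E and 252, 267 and 269.9 CPM in WT CFU-E, a log2 difference of 0.69, SE 0.03, edgeR adjusted p = 9.6e-35. The groups did not overlap. Atp5b, the catalytic beta subunit, had 997, 1018 and 994 CPM against 1272, 1269.6 and 1279 CPM (0.45, SE 0.02, edgeR adjusted p = 2.56e-36). The largest rises within each complex were those of Ndufa5 (0.81, edgeR adjusted p = 2.94e-27), Sdhd, a membrane anchor of complex II (0.57, edgeR adjusted p = 6.46e-25), Uqcrq and Uqcrfs1 (0.56 and 0.56, edgeR adjusted p = 4.25e-21 and 2.13e-19), Cox7c and Atp5f1 (0.55 and 0.55, edgeR adjusted p = 0.000246 and 2.12e-22). Sdha, the flavoprotein of complex II, rose little, from 448, 456 and 453 CPM to 483, 494 and 500.3 CPM (log2 0.23, SE 0.03, edgeR adjusted p = 7.64e-14).

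The 4 members that went the other way were Cox7a2l, Ndufa6, Ndufv3 and Atp5sl. Cox7a2l, which links complexes III and IV, fell by 0.38 on the log2 scale (edgeR adjusted p = 3.93e-05), from 42, 46.2 and 40.1 CPM to 33.6, 30.1 and 28 CPM, and has a near-identical copy. Ndufa6, an accessory subunit, had 96, 104 and 99.4 CPM in BFU-E and 82.2, 82.4 and 76.5 CPM in CFU-E (-0.21, SE 0.05, edgeR adjusted p = 0.000243). Atp5sl changed by -0.43 (edgeR adjusted p = 0.00145). Ndufv3 changed by only -0.15 (edgeR adjusted p = 0.0314), a call lost without WT BFU-E replicate 3 or WT CFU-E replicate 2 or 3.

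In the stage series the same step gave 49 members higher and 0 lower of 84, with a median of 0.95 against -0.01 over 10807 genes, of which 18.2% were higher and 19.1% lower. With all groups of the series in 1 fit, or with each Y-positive triplicate summed to 1 library, 0 members were called by edgeR, and 20 and 44 had an unadjusted p under 0.05. Ndufs1 had 153, 161 and 164 CPM in BFU-E and 243, 258, 258, 189 and 203 CPM in CFU-E (0.66, SE 0.11, edgeR adjusted p = 0.00235). Cox5a, an early-assembling subunit of complex IV, had 51.8, 58.1 and 54.9 CPM against 90.9, 91.4, 94.5, 137 and 129 CPM (1.13, SE 0.21, edgeR adjusted p = 0.00365). Cox7a2 had the largest named rise, from 39, 40.3 and 37.1 CPM to 58.5, 59.1, 51.3, 239 and 210.1 CPM (1.85, SE 0.63, edgeR adjusted p = 0.0457), and its last 2 values, from the Xist-positive libraries, stand far above the others. Sdha did not pass the test (0.06, SE 0.12, edgeR adjusted p = 0.696): its Y-positive CFU-E libraries lay above BFU-E and its Xist-positive ones below. All BFU-E libraries are Y-positive, so within that kind the step could be repeated with 3 libraries a group: 71 members were called, 69 higher and 2 lower, with a median of 0.46. The count fell to 7, 13 and 9 without BFU-E replicates 1, 2 and 3 and to 31 without CFU-E replicate 5. Those omissions also ended the call of Cox7a2, while those of Ndufs1 and Cox5a were kept in every omission of 1 library.

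The step into erythroblasts split the chain by role. In WT ERY-I-II against WT CFU-E 37 of 84 members were higher and 22 lower, where 39.9% of all 10197 genes tested were higher and 41.9% lower: the share of members higher was near that of all genes, and the share lower was smaller. Within it, 6 of 7 complex I assembly factors, all 4 complex II genes and all 3 c-ring genes of the ATP synthase were lower, with medians of -0.48, -0.29 and -0.52. By contrast, 15 of 28 accessory subunits of complex I, 6 of 7 stalk and membrane subunits of the ATP synthase and 8 of 11 common complex IV subunits were higher, with medians of 0.26, 0.30 and 0.26. Scaled to library totals in place of TMM, 6 members were higher and 53 lower, because the median over all genes then moved from -0.03 to -0.47. The rises of this step are therefore rises relative to other genes, and the scaling shifts all members by about the same amount.

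Ndufaf4, a complex I assembly factor, had 79.5, 78.6 and 74.5 CPM in WT CFU-E and 21, 21.5 and 21.9 CPM in WT ERY-I-II (-1.42, SE 0.08, edgeR adjusted p = 2.17e-19). Ndufaf6 and Ndufaf5, factors of the same kind, changed by -1.63 and -1.35 (edgeR adjusted p = 5.22e-10 and 6.9e-07). Sdhd dropped from 192, 188 and 180.1 CPM to 67, 82.5 and 78 CPM (-0.85, SE 0.05, edgeR adjusted p = 4.77e-18). The groups did not overlap for any of these genes.

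Of the 3 genes that encode the identical c-ring subunit, Atp5g2 had 22, 20.8 and 19.2 CPM and then 6.58, 8.71 and 8.83 CPM (-0.91, SE 0.14, edgeR adjusted p = 3.26e-07). Atp5g1 changed by -0.52 (edgeR adjusted p = 3.94e-07). Atp5g3, the main source, changed by -0.15 (edgeR adjusted p = 0.00513), a call lost without WT CFU-E replicate 1. Other members that fell were Cox5a (-0.70, edgeR adjusted p = 3.64e-13), Uqcrc2, a core subunit of complex III (-0.38, edgeR adjusted p = 7.03e-11), Ndufb5 (-0.68, edgeR adjusted p = 1.29e-10) and the paralog Cox6b2 (-0.35, edgeR adjusted p = 0.00023).

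On the other side, Cox6a1 had 108, 121 and 116 CPM in WT CFU-E and 133, 134 and 136 CPM in WT ERY-I-II (0.66, SE 0.05, edgeR adjusted p = 2.97e-16), higher on both scales. Ndufb7, an accessory subunit, rose by 0.71 (edgeR adjusted p = 5.52e-15) and Uqcrh by 0.58 (edgeR adjusted p = 3.01e-15). Atp5h rose by 0.80 (edgeR adjusted p = 3.58e-25), with 4 near-identical copies. Atp5b shows how the scaling enters: its CPM were lower, 1014, 1062 and 1052 after 1272, 1269.6 and 1279, while its TMM difference was 0.15 (edgeR adjusted p = 1.22e-07) and its difference on library totals -0.29.

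In the stage series ERY-I against CFU-E gave 0 members higher and 15 lower of 84 (25.4% and 20.9% of 10460 genes), and 6 of the 15 were complex I assembly factors, of which there are 7, with a median of -0.91. Ndufaf4 had 71.3, 72.9, 79.2, 102 and 69.6 CPM in CFU-E, and in ERY-I 10.7 at the lowest, 18.8 at the median and 38 at the highest CPM (-1.53, SE 0.22, edgeR adjusted p = 0.00017). The groups did not overlap. Sdhd changed by -0.93 (edgeR adjusted p = 0.00213) and Atp5g2 by -1.16 (edgeR adjusted p = 0.00783), both also lower in WT ERY-I-II. The count depended on the libraries. Within the Y-positive libraries 2 members were called higher and 68 lower, and within the Xist-positive ones 0 and 24. With the replicate number as a block 62 members were called, but replicates 1 to 3 are the Y-positive ones in both gates. Pairing of samples and the kind of library therefore cannot be told apart in that count. The count without a block was 7 to 9 when CFU-E replicate 4 or 5 or any of ERY-I replicates 1 to 3 was left out. Leaving out the 4 ERY-I libraries whose neutrophil markers passed 1000 CPM gave 10 calls, 4 higher and 6 lower. These 4 include all the Y-positive ERY-I libraries, so markers and kind of library cannot be told apart in that count. The part of those markers in the result was not tested.

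Most members were lower in the later erythroblasts of WT, with the lowest medians in complexes I and II. In WT ERY-III-VI against WT ERY-I-II 60 of 84 members were lower and 3 higher, where 38.1% of all 9503 genes were lower and 35.3% higher. The members' median was -0.44 and that of all genes -0.07. Medians by complex were -0.59 in complex I, -0.86 in complex II, -0.32 in complex III, -0.20 in complex IV and -0.30 in complex V. All 7 core subunits of complex I, 6 of 7 assembly factors (median -1.86), all 5 F1 subunits and all 3 c-ring genes (median -0.94) were lower, but only 3 of 7 stalk and membrane subunits. The assembly factor not called lower was Ndufaf3, at 0.31 (edgeR adjusted p = 0.178).

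Ndufaf7, the assembly factor that methylates a core subunit, had 19.1, 16.3 and 18.1 CPM and then 2.19, 1.79 and 1.39 CPM (-2.53, SE 0.24, edgeR adjusted p = 4.13e-11). Sdhb, the iron-sulfur subunit of complex II, had 81.4, 66.5 and 73.5 CPM and then 23, 21 and 24.3 CPM (-0.98, SE 0.10, edgeR adjusted p = 3.77e-10). Cox5a dropped from 55, 50.2 and 46.8 CPM to 14.3, 18.7 and 21.7 CPM (-0.79, SE 0.13, edgeR adjusted p = 1.53e-06). No library of the later gate reached the earlier one for these genes.

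Atp5g1 changed by -1.27 (edgeR adjusted p = 5.24e-08), Uqcrc2 by -0.76 (edgeR adjusted p = 5.81e-10) and Atp5a1 by -0.47 (edgeR adjusted p = 3.11e-17). Atp5b moved less, by -0.18 (edgeR adjusted p = 2.48e-07). The 3 members called higher, Cox6a1 (0.17, edgeR adjusted p = 0.00968), Ndufb11 (0.30, edgeR adjusted p = 0.00223) and Atp5h (0.21, edgeR adjusted p = 4.58e-06), were lower on library totals (-0.54, -0.42 and -0.50), and the call of Cox6a1 was lost without WT ERY-III-VI replicate 2. On library totals 81 members were lower and 0 higher, and the all-gene median stood at -0.78.

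In the stage series ERY-II against ERY-I had 15 members lower and 2 higher of 84 (25.1% and 20.2% of 10327 genes), below the shares of all genes in both directions. The lower ones included 4 of 7 complex I assembly factors (median -1.85) and 3 of 4 complex II genes (median -0.70), and none of the 13 complex IV genes tested. The assembly factor Ndufaf3 went the other way and had the largest called rise of complex I, 1.203 (edgeR adjusted p = 0.0298), but stood at -0.21 on library totals. Ndufaf4 was at 10.7 at the lowest, 18.8 at the median and 38 at the highest CPM in ERY-I and at 1.18, 2.57, 1.09 and 0.526 CPM in ERY-II (-2.72, SE 0.38, edgeR adjusted p = 0.000239). Sdhd went from 58 to 129 CPM to 19.3, 12.5, 14.4 and 4.21 CPM (-1.41, SE 0.27, edgeR adjusted p = 0.00144). Neither pair of groups overlapped. All ERY-II libraries are Xist-positive, and against the Xist-positive ERY-I libraries 35 members were lower and 0 higher. On library totals 68 members were lower and 0 higher, since the median of all genes then stood at -1.68.

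The last gates resolved few members. ERY-III against ERY-II gave 0 calls of 78 members tested with edgeR (median 0.18, with 0.185% of 7574 genes called), 3 members at an unadjusted p under 0.05, and 0 calls with DESeq2. ERY-IV against ERY-III gave 0 calls of 78 with edgeR (median -0.03, with 13.6% of 7238 genes called), 4 at an unadjusted p under 0.05, and 1 call with DESeq2. Replicate numbers pair the samples of both steps, and with them as a block 4 members (3 higher, 1 lower) and 7 members (5 higher, 2 lower) were called. On library totals the second of these steps had 12 lower and 0 higher, and the all-gene median stood at -0.63. ERY-V against ERY-IV had 1 member lower of 74, where 2.33% of 6990 genes were lower and 6.49% higher: Ndufv1, which holds the NADH site of complex I, had 48.1, 51.5, 26.9 and 48.3 CPM in ERY-IV and 2.7 at the lowest, 9.91 at the median and 15.7 at the highest CPM in ERY-V (-1.35, SE 0.36, edgeR adjusted p = 0.0286). Its call was lost without ERY-IV replicate 1, 2 or 4 or ERY-V replicate 1, 2 or 3. ERY-VI against ERY-V had 1 member higher of 54 (3.32% of 5030 genes higher, 4.51% lower): Atp5b, with 315 at the lowest, 367 at the median and 777 at the highest CPM and then 428, 311, 633 and 857 CPM (1.82, SE 0.44, edgeR adjusted p = 0.0199), in groups that overlap. The members with any count dropped from 85 to 87 a library in BFU-E to as few as 49 in an ERY-VI library, the gate that also held the library with the lowest total count; the part of depth in these counts was not tested. Neutrophil markers passed 1000 CPM in 4 ERY-V libraries, which include all the Y-positive ones. Without them neither gene kept its call, 6 members were called higher and 0 lower in ERY-V, and 0 members were called in ERY-VI. Markers and kind of library cannot be told apart in those counts. Among Xist-positive libraries alone 1 member was called in ERY-V, higher, and 0 in ERY-VI. On library totals ERY-VI had 0 members higher and 7 lower, and the all-gene median stood at -2.24.

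WT ERY-V-VI against WT ERY-III-VI gave 7 members higher and 10 lower of 79 where 18.4% and 12.9% of 8025 genes were: the share of members lower was close to that of all genes, and the share higher was smaller. Atp5b (0.70, edgeR adjusted p = 2.8e-08), Uqcrh (0.78, edgeR adjusted p = 0.00115), Cox7b (1.39, edgeR adjusted p = 3.14e-06) and Ndufa3 (0.81, edgeR adjusted p = 0.0094) were called higher after TMM scaling. The CPM of Atp5b fell, from 567, 556 and 556 to 401, 401 and 426. On library totals 70 members were lower and 0 higher, and the all-gene median stood at -1.16, and Atp5b, Uqcrh and Ndufa3 stood at -0.45, -0.38 and -0.34. Atp5g3 went from 39.5, 36.8 and 34.8 CPM to 11.2, 10.2 and 4.65 CPM (-0.96, SE 0.29, edgeR adjusted p = 0.0222), lower on both scales, but its call was lost without any 1 of the WT ERY-III-VI libraries. Without WT ERY-III-VI replicates 1, 2 and 3 in turn the count of calls was 6, 7 and 7.

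How much of each member's CFU-E level was left in late erythroblasts could be set side by side in the 2 series. The share kept was taken on CPM with globin genes left out, as the mean of ERY-IV over that of the Xist-positive CFU-E libraries, and as the mean of WT ERY-III-VI over that of WT CFU-E. The stage share thus rests on Xist-positive libraries and the WT share on Y-positive ones. Between the 2 shares, series, gate and kind of library cannot be told apart. For the 82 members with at least 5 such CPM in both CFU-E groups the median share was 20.2% and 35.8%, below the 25.6% and 41.6% of 8388 genes at that level. By complex, in the stage series and in WT, the medians were 16.4% and 33.8% for complex I, 13.2% and 21.6% for complex II, 27.3% and 39.1% for complex III, 35.9% and 49.1% for complex IV, and 31.8% and 45.6% for complex V. The order of the complexes was the same in both. Over the 82 members the 2 shares had a Pearson correlation of 0.897 on the log scale and a Spearman correlation of 0.881, across genes that share their lengths and annotation in both series. Shorter mRNAs kept more in both, with a Spearman correlation to mRNA length of -0.466 and -0.398.

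Several small subunits were well kept, of which Ndufb11 has 1 near-identical copy. Cox6a1 kept 81.3% and 84%, Ndufb11 74.1% and 89.5%, Cox7a2 65.9% and 65.8%, Ndufa11 59.5% and 67.7% and Uqcrh 53% and 65.9%. Atp5s kept 153% and 97.8%, at a level of only 6.5 to 9.42 CPM in WT CFU-E. The assembly factors had a median of 3.01% and 5.67% but a wide range, and Ndufaf3 kept 30.5% and 69.5% and Ndufaf1 14.8% and 25.3%. Among the least kept, Ndufaf4 kept 0.586% and 4.8%, the former from 7 counts over the 4 ERY-IV libraries, and Ndufaf7 2.99% and 5.67%. Among structural subunits Ndufb5 kept 1.52% and 11.2%, Atp5g1 2.72% and 13.5%, Sdhd 6.56% and 13.4%, Cox5a 9.67% and 17.3% and Sdhb 11.2% and 19.1%. Atp5g2 kept 12.9% in WT and had 2 counts over the 4 ERY-IV libraries.

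**Figure D2:**
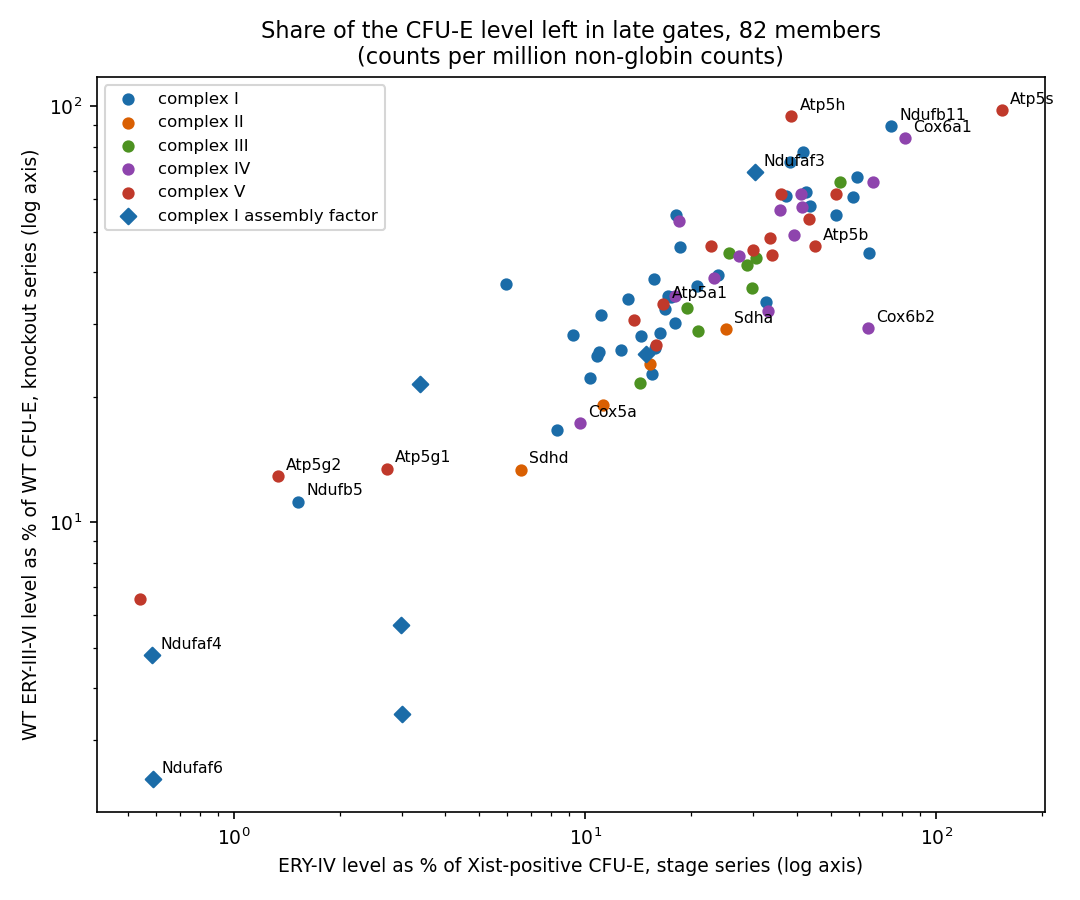
Percent of the CFU-E level kept in late erythroblasts, stage series against WT of the knockout series, on log axes, 1 point a member, coloured by complex. Stage libraries are Xist-positive here and WT libraries Y-positive. The order of the members is alike in the 2 series (Spearman correlation 0.881, 82 members), but the shares are larger in WT (median 35.8% against 20.2%); Ndufaf4 and Ndufaf6 lie at the lower left and Cox6a1 and Ndufb11 at the upper right.

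Genes of the chain are known targets of NRF1 and of ETS factors, so the starts of the members were read for their short motifs. RefSeq windows of GRCm38.p6, from 250 bases before to 50 after each start, were matched by symbol for 76 members with 82 windows. The NRF1 letters GCGCATGC were found, on either strand, in 12 member windows (14.6%) and in 2.71% of all 32851 windows. The ETS letters CGGAAG were in 40.2% against 16.9%, the YY1 letters AAGATGGC in 14.6% against 2.75%, the ERR letters TCAAGGTCA in 2.44% against 0.423%, and the erythroid GATA letters AGATAA in 7.32% against 11.2%. A match is a description of the letters, not a binding site. The background is all windows, not those of expressed genes or of like base content. These differences therefore cannot be called particular to the chain. The stretches below hold the NRF1 letters of 6 members, picked with their values known, 2 of them well kept, 1 near the median of complex V and 3 poorly kept, in capitals together with any ETS letters; in 4 of them the 10 capitals read the same on both strands and hold the motif on each.
Ndufa11 (chr17:56717672-56717741, plus strand): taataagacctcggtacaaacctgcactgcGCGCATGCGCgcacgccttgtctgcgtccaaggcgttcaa
Ndufa6 (chr15:82354337-82354404, minus strand): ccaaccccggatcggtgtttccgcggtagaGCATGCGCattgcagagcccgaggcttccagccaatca
Atp5k (chr5:108434410-108434479, minus strand): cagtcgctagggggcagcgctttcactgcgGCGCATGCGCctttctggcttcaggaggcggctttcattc
Sdhb (chr4:140961187-140961254, plus strand): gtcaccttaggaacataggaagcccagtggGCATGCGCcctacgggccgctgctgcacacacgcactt
Ndufaf4 (chr4:24897940-24898020, plus strand): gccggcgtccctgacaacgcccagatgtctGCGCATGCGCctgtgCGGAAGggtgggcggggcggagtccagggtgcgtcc
Atp5g2 (chr15:102671050-102671119, minus strand): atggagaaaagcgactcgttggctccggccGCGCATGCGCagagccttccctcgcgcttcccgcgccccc
The shares kept, in the order of these lines, were 59.5% and 67.7%, then 37.2% and 60.8%, 33.7% and 48.2%, 11.2% and 19.1%, 0.586% and 4.8%, and for Atp5g2 12.9% in WT. The same letters thus stood near the starts of genes at both ends of the range, as the choice of these members made sure.

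With losses this unequal, the makeup of the chain's mRNA shifted. Complex IV genes were 12.6, 12.7 and 12.8% of the summed chain counts in BFU-E and 26.1 to 32.4% in ERY-VI, without overlap. Complex II genes went from 8.52 to 8.74% to 0.838 to 2.02%, and complex I genes from 29.2 to 29.4% to 10.7 to 15.2%. Complex V genes took 38.8 to 39.3% in BFU-E and 47.2 to 55.7% in ERY-VI. Most of the latter was 1 gene: Atp5b averaged 557 of the 757 CPM of complex V in ERY-VI, against 903 of 3401 CPM in BFU-E. The rise in share is therefore not one of the complex V genes as a group. Complex IV was uneven too. There Cox6a1 and Cox6b2 averaged 131 and 74.7 of 427 CPM in ERY-VI, against 86.9 and 43.7 of 1106 CPM in BFU-E. By contrast, Cox4i1 averaged 21.6 CPM in ERY-VI and 156 CPM in BFU-E. WT libraries moved the same way from BFU-E to ERY-V-VI: complex IV from at most 12.96% to 16.6 to 18.6%, complex II from 8.04 to 8.22% to 3.41 to 4.53%, complex I from 29.3 to 29.7% to 22.4 to 23.8%. The 2 kinds of stage library differed here too: complex IV was 12.9 to 13.1% in Y-positive and 17.2 to 17.9% in Xist-positive CFU-E. Stage BFU-E libraries are Y-positive and ERY-VI ones Xist-positive, so stage and kind of library cannot be told apart between them. These shares do not depend on how libraries are scaled.

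The shares of paralogs shifted within some subunits. Shares here are of counts per length, as the mean ± SD over libraries. Atp5g3 held 74.2% ± 0.881 (SD, n = 3) of the c-ring counts in BFU-E and 96.9% ± 0.635 (SD, n = 4) in ERY-IV, and in WT 74.5% ± 1.73 (SD, n = 3) in BFU-E and 88.3% ± 1.87 (SD, n = 3) in ERY-III-VI. Atp5g2 gave way, from 18.5% ± 0.240 (SD, n = 3) to 0.544% ± 0.752 (SD, n = 4), and in WT from 17.8% ± 1.94 (SD, n = 3) to 7.45% ± 2.58 (SD, n = 3). These shifts were larger than the spread between libraries in both series. Stage BFU-E libraries are all Y-positive and ERY-IV ones all Xist-positive. Stage and kind of library therefore cannot be told apart in any of the stage series shifts given here. Cox7a2 rose from 51.3% ± 2.98 (SD, n = 3) to 90.3% ± 3.12 (SD, n = 4) of its family, and in WT from 65.2% ± 1.90 (SD, n = 3) to 79.2% ± 4.54 (SD, n = 3), with Cox7a2l giving way. Cox6b2, a form known from testis, went opposite ways: from 37.8% ± 0.625 (SD, n = 3) to 55.7% ± 8.70 (SD, n = 4) in the stage series, but from 37.3% ± 2.52 (SD, n = 3) to 26.2% ± 1.80 (SD, n = 3) in WT. Cox6a1 made up 99.2% ± 1.01 (SD, n = 7) of its family in ERY-I and more in the other stage groups.

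The GS-KO comparisons ask what loss of GS changes in each gate. Glul CPM in GS-KO and WT were 96.1, 99.7 and 100.7 against 120.0, 120.9 and 125.5 in BFU-E and 34.7, 35.9 and 37.5 against 84.2, 84.2 and 89.7 in CFU-E. They were 12.8 to 16.6 against 104 to 113 in ERY-I-II, 17.0 to 22.5 against 152 to 167 in ERY-III-VI and 22.3 to 23.95 against 246 to 268 in ERY-V-VI. Glul was thus lower in every GS-KO library, least so in BFU-E. All 15 GS-KO libraries held neutrophil markers at 4364 CPM or more and macrophage markers at 239.99 to 869 CPM (WT 4.22 to 79.1), so no comparison without such libraries could be made, and the part of these markers in the results below was not tested. The WT libraries are the same as in the stage steps above.

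In BFU-E 23 of 84 members were lower and 1 higher in GS-KO, where 8.59% of all 11356 genes were lower and 15.4% higher. The members' median was -0.11, a small shift. Sdhb had 95.4, 89.5 and 97.3 CPM against 116, 121 and 117 CPM in WT (-0.32, SE 0.05, edgeR adjusted p = 5.8e-06). Ndufa10, an accessory subunit, changed by -0.25 (edgeR adjusted p = 1.02e-05) and Cox5b by -0.24 (edgeR adjusted p = 7.94e-06). Ndufv3 was the 1 member higher, by 0.20 (edgeR adjusted p = 0.0315), a call lost without WT replicate 1 or 2 or GS-KO replicate 1 or 2. The count was 13 without WT BFU-E replicate 2.

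In CFU-E 18 of 84 members were lower and 4 higher, where 11.5% and 17.9% of 10859 genes were, with a median of -0.05. The largest changes were small. Ndufb8 had 105, 94.1 and 102 CPM against 113, 113 and 124 CPM (-0.22, SE 0.05, edgeR adjusted p = 0.000478). Higher were Uqcrh (0.21, edgeR adjusted p = 0.000346), Cox7a2l (0.38, edgeR adjusted p = 0.000721), Ndufv3 (0.24, edgeR adjusted p = 0.00362) and Atp5k (0.23, edgeR adjusted p = 0.0316), whose call was lost without replicate 2 of either group.

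The gate with the most calls was ERY-I-II, where 49 of 84 members were lower in GS-KO and 0 higher, against 17.5% lower and 22.9% higher of all 9954 genes. The members' median was -0.22 and that of all genes -0.01. The erythroid markers differed here too, at 41599 to 41828 CPM in GS-KO and 24345 to 24424 CPM in WT, and their part in the result was not tested. Calls covered 22 of 42 genes in complex I, 3 of 4 in complex II, 7 of 8 in complex III, 8 of 13 in complex IV and 9 of 17 in complex V. Atp5b had 799, 801 and 807 CPM against 1014, 1062 and 1052 CPM in WT (-0.26, SE 0.02, edgeR adjusted p = 7.88e-16). Atp5a1, its partner, changed by the like amount of -0.27 (edgeR adjusted p = 4.73e-16).

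Sdha had 261, 264 and 241 CPM in GS-KO ERY-I-II against 340.0, 328 and 347 CPM (-0.29, SE 0.04, edgeR adjusted p = 7.78e-10). Groups did not overlap for any of these genes. Ndufaf7 (-0.58, edgeR adjusted p = 0.00445), Uqcr10 (-0.33, edgeR adjusted p = 0.00544), Cox5b (-0.32, edgeR adjusted p = 7.02e-08) and Atp5o, with 3 near-identical copies (-0.37, edgeR adjusted p = 7.92e-07), had the largest falls of their complexes. On library totals 64 members were lower and 0 higher.

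In ERY-III-VI the calls were few beside the background: 9 of 80 members lower and 5 higher, where 24.5% and 31.4% of 9981 genes were. Ndufv3 had 26.5, 27.3 and 24.4 CPM in GS-KO and 14, 12.7 and 11.3 CPM in WT (0.86, SE 0.15, edgeR adjusted p = 2.44e-06). Cox5a had 28.9, 25.6 and 26.5 against 14.3, 18.7 and 21.7 CPM (0.44, SE 0.15, edgeR adjusted p = 0.00796), a call lost without replicate 1 of either group. Ndufb8 was the clearest of the lower ones (-0.34, SE 0.09, edgeR adjusted p = 0.0016). On library totals the direction of the count turned: 22 members were higher and 0 lower, and the all-gene median stood at 0.21 in place of 0.05.

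In ERY-V-VI 9 of 80 members were higher and 11 lower, where 22.4% and 20.5% of 9403 genes were. The libraries differed in more than genotype: globin counts were 7.68 to 7.81% in GS-KO and 19.6 to 19.8% in WT, and the erythroid markers summed to 89690.4 to 90807.5 CPM against 196959 to 199633 CPM. On library totals 68 members were higher and 0 lower, because the median of all genes moved from 0.15 to 1.44. The members' own median was 0.03 on one scale and 1.32 on the other, below that of all genes on both.

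Cox5a had 28.6, 30.5 and 30.4 CPM in GS-KO ERY-V-VI and 4.44, 6.07 and 4.23 CPM in WT (1.33, SE 0.32, edgeR adjusted p = 0.00345). Atp5g3 had 34.2, 44.9 and 39.6 against 11.2, 10.2 and 4.65 CPM (0.91, SE 0.32, edgeR adjusted p = 0.0292), a call lost without WT replicate 3 or any 1 of the GS-KO libraries. Atp5b had more CPM in GS-KO, 518, 501 and 489 against 401, 401 and 426, yet a TMM difference of -0.998 (edgeR adjusted p = 1.99e-10), which was 0.30 on library totals. Uqcrh and Ndufb9 turned in the same way, from -1.02 and -1.02 (edgeR adjusted p = 6.44e-05 and 2.88e-05) to 0.28 and 0.27. Ndufaf5 was at 0 in all 3 WT libraries and at 2.7, 3.39 and 4.79 CPM in GS-KO. Complex IV made up 14.3 to 15.3% of the chain in GS-KO and 16.6 to 18.6% in WT, and complex I 27.0 to 28.4% against 22.4 to 23.8%, without overlap. The count of calls was 11, 9 and 10 without GS-KO replicates 1, 2 and 3.

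**Figure D3:**
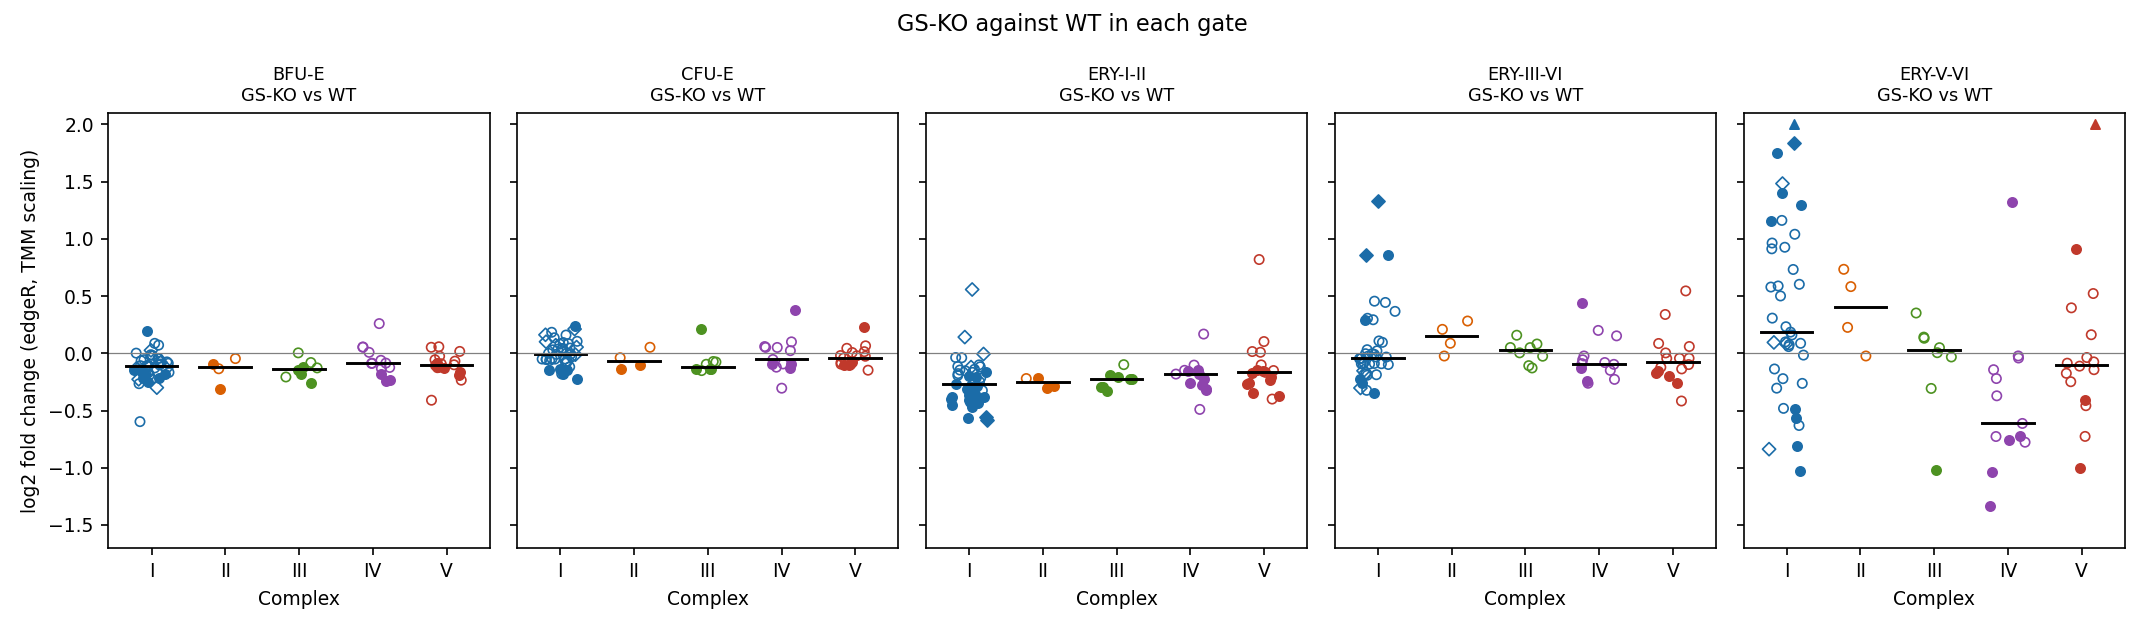
Log2 difference between GS-KO and WT of each tested member after TMM scaling, by gate and complex; filled points passed the edgeR test, open points did not, diamonds are complex I assembly factors, bars are medians, and the triangles at the upper edge are Ndufaf5 and Atp5g2 in ERY-V-VI, which lie beyond the axis. Filled points lie below 0 in ERY-I-II (49 members), and on both sides of 0 in ERY-V-VI (9 higher, 11 lower).

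Whether the genotype difference changed between gates was tested as an interaction. It was called for 49 of 84 members, 58.3%, a share close to the 61.2% of all 12051 genes tested. By complex it was called for 27 of 42 in complex I, 2 of 4 in complex II, 2 of 8 in complex III, 8 of 13 in complex IV and 10 of 17 in complex V. The smallest edgeR adjusted p was that of Atp5b, 6.55e-25.

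Other genes of the organelle were counted from lists. The shares of all genes higher and lower in the WT steps to CFU-E, ERY-I-II and ERY-III-VI, given above, were 34.5 and 36%, 39.9 and 41.9%, and 35.3 and 38.1%. Of 23 import and carrier genes of the mitochondrial membranes 18 were higher and 0 lower in CFU-E, as most of the chain was. Then 3 were higher and 19 lower in ERY-I-II, where the chain had more members higher than lower, and 0 higher and 19 lower in ERY-III-VI. Slc25a4, an ATP/ADP carrier, fell by 2.28 and 3.36 in those 2 steps (edgeR adjusted p = 2.2e-28 and 1.37e-12). Of 34 assembly factors outside the symbols used, 12 were higher and 3 lower in CFU-E, then 6 and 19, then 3 and 23; the share higher in CFU-E was near that of all genes. Cox17, the copper chaperone of complex IV, rose by 0.95 in CFU-E (edgeR adjusted p = 2.28e-30), Cox10, of haem a synthesis, changed by -1.63 in ERY-I-II (edgeR adjusted p = 1.59e-19) and Tmem70, an ATP synthase factor, by -2.30 in ERY-III-VI (edgeR adjusted p = 4.62e-09). Of 14 genes of cytochromes c and c1 and coenzyme Q synthesis, 6 were higher and 2 lower, then 1 and 7, then 1 and 10. On library totals each of these 3 lists also had more genes higher than lower in CFU-E and more lower than higher in the next 2 steps.

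Most mitochondrial clearance genes were higher in each WT step after CFU-E. Of 15 tested 2 were higher and 7 lower in CFU-E, and then 11 of 14, 11 of 13 and 10 of 13 were higher in the 3 later WT steps, with 3, 1 and 1 lower, above the 39.9, 35.3 and 18.4% of all genes that were higher. Bnip3l, the receptor that marks mitochondria for removal in reticulocytes, rose by 1.98, 2.07 and 3.54 (edgeR adjusted p = 9.47e-35, 3.02e-33 and 4.14e-18), and by 1.54, 1.35 and 2.38 on library totals. Atpif1, the inhibitor of the ATP synthase, rose by 0.80 in ERY-I-II (edgeR adjusted p = 4.7e-31) and by 0.37 on library totals. Its later differences of 0.75 and 0.27 (edgeR adjusted p = 5.8e-26 and 2.29e-05) were 0.04 and -0.88 on library totals, and its difference of 0.06 in CFU-E (edgeR adjusted p = 0.0151) was -0.05. Of 12 regulators tested 4 were higher and 2 lower in CFU-E, then 4 and 7, then 3 and 6, of which the 4 higher in CFU-E are a share near that of all genes. On library totals these counts were 3 and 4, then 2 and 9, then 1 and 9. Myc fell by 0.92 in CFU-E and by 2.36 in ERY-I-II (edgeR adjusted p = 1.82e-54 and 9.81e-36). Nrf1, a factor that binds promoters of the chain, rose by 1.16 in ERY-I-II and by 0.85 in ERY-III-VI (edgeR adjusted p = 8.15e-25 and 5.44e-17), and Polrmt, the mitochondrial RNA polymerase, fell by 2.99 in ERY-III-VI (edgeR adjusted p = 2.38e-11). On library totals the differences of Nrf1 were 0.73 and only 0.13, and that of Polrmt was -3.70.

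In GS-KO ERY-I-II 15 of 23 import genes and 11 of 33 outside assembly factors were lower and 0 higher, while 9 of 13 clearance genes were higher and 0 lower, on either scale for the latter; of all genes 17.5% were lower and 22.9% higher. Bnip3l was higher by 1.06 (edgeR adjusted p = 2.73e-40). In GS-KO ERY-V-VI the clearance genes stood the other way, with 10 of 13 lower and 1 higher, where 20.5% and 22.4% of all genes were, and Bnip3l at -2.80 (edgeR adjusted p = 5.66e-20), or -1.50 on library totals. There 7 of 22 import genes were higher and 0 lower. Neutrophil and macrophage markers stood apart between the genotypes in both gates, as given above.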

How the data were processed

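RNA of sorted mouse bone marrow cells was sequenced in 68 libraries with a strand-preserving total-RNA kit made for small inputs, per the labels' protocols. The values are counts per gene as deposited in 2 tables, 1 for each series. STAR 2.5.2b, HTSeq and the build mm10 are named in the submitters' processing notes; the sources used here give neither the annotation, nor the HTSeq version, nor whether counting used strand, so reads of overlapping and antisense genes may not be separated. Each series was tested within its own table.

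From the counts, edgeR 4.0.16 (R 4.3.3) tested each pair of groups with only their libraries in the fit: filterByExpr with a minimum count of 10 and a minimum total of 15, TMM scaling, the quasi-likelihood test and Benjamini-Hochberg adjustment at 0.05. CPM are relative to library totals. Lengths are of principal GENCODE transcripts, and near-identical copies are other genes with at least 95% identity over 200 bases. The test was checked on simulated counts. DESeq2 1.42.0 and the other alternatives are in the closing section.

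The named members were 10 landmark subunits, the paralog families, the member with the largest called rise and fall of each complex at a mean of at least 5 CPM, called members that went against their complex, and, from each list of other genes, the called gene with the largest change; of these the text gives those that show each result. Glul was named in the knockout series. Members named for the share they kept, and other genes outside this rule, were chosen after their values were seen. The members and lists were chosen with earlier results of these data known. Replicate numbers were taken to pair samples where the own-number correlation was over 0.1 in every pair. This held in ERY-I against CFU-E, ERY-III against ERY-II and ERY-IV against ERY-III (lowest 0.307, 0.604 and 0.342), and in no other comparison. In the first, 3 of 5 numbers matched best with their own, and the numbers also follow the kind of library.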

Additional observations from a re-analysis of the deposited data

Results flagged for a closer look

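In 12 of 112 tests of groups of 4 to 7 libraries 1 library stood apart from the rest of its group by Dixon's criterion. That criterion is set to about 1 in 20 for a single normal group. The tests share libraries and genes, and some groups hold both kinds of library, so the count cannot be set against that rate. ERY-I replicate 4 was high in summed complex II genes (678.9 CPM), Ndufs1 (189.9 CPM) and Sdha (366 CPM). ERY-IV replicate 3 was low in Ndufv1 (26.9 CPM) and Cox5a (4.77 CPM), and ERY-II replicate 3 was high in Ndufv1 (69.8 CPM). ERY-V replicate 7 was high in summed complex V genes (1384 CPM) and Atp5b (776.6 CPM), and ERY-V replicate 1 in Cox5a (15.5 CPM). ERY-VI replicate 4 was high in summed complex II genes (45.99 CPM) and Ndufv1 (28.2 CPM), and ERY-VI replicate 2 in Cox5a (13.2 CPM).

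The genotype difference changed between gates for 49 of the 84 members tested, by an interaction test in edgeR. That is 58.3%, below the 61.2% of all 12051 genes tested.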

How the results depend on the processing

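Of 136 recounts of the called members under other settings, 92 stayed within 1.5 times the count reported and 44 did not. Scaling to library totals gave 35 calls for ERY-I against CFU-E, 68 for ERY-II against ERY-I, 12 for ERY-IV against ERY-III, 8 for ERY-V against ERY-IV, 7 for ERY-VI against ERY-V, 70 for WT ERY-V-VI against WT ERY-III-VI, and 22 and 68 for GS-KO against WT in ERY-III-VI and ERY-V-VI, with 81 for the interaction. It also turned the direction of single genes: Atp5b from WT CFU-E to ERY-I-II (-0.29), Ndufaf3 from ERY-I to ERY-II (-0.21), Cox6a1, Ndufb11 and Atp5h from WT ERY-I-II to ERY-III-VI (-0.54, -0.42 and -0.50), Atp5b, Uqcrh and Ndufa3 from WT ERY-III-VI to ERY-V-VI (-0.45, -0.38 and -0.34), Atp5b, Ndufb9 and Uqcrh in GS-KO ERY-V-VI (0.30, 0.27 and 0.28), and Atpif1 in WT CFU-E and WT ERY-V-VI (-0.051 and -0.88). The cause is the scaling itself, which shifts every gene of a comparison. For the lists of other mitochondrial genes, library totals and leaving out libraries were alternatives chosen after seeing the data.

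With the replicate block, where the numbers pair the samples, the counts were 62 for ERY-I against CFU-E, 4 for ERY-III against ERY-II and 7 for ERY-IV against ERY-III. Where they share only a number, the replicate block gave 43 for ERY-II against ERY-I, 17 for ERY-V against ERY-IV and 7 for ERY-VI against ERY-V, and within 1.5 times the count reported elsewhere. With all groups in 1 fit the counts were 0 for CFU-E against BFU-E, 2, 4, 14 and 13 for ERY-I, ERY-II, ERY-V and ERY-VI against the gate before, 50 for WT ERY-V-VI, and 8, 45 and 45 for GS-KO CFU-E, ERY-III-VI and ERY-V-VI. DESeq2 gave 1, 2 and 2 for ERY-IV, ERY-V and ERY-VI and 12 for GS-KO CFU-E. Without the low-count filter there were 5 and 3 calls for ERY-V and ERY-VI and 30 for WT ERY-V-VI, and without globin genes 2 for ERY-V. Summing the Y-positive triplicates gave 0 for CFU-E, 7 for ERY-I, 0 for ERY-V and 0 for ERY-VI. In the knockout series such summing would leave 1 library a group, so the same check could not be made there. ERY-I against CFU-E had 70 calls in Y-positive libraries, 24 in Xist-positive ones and 46 with the kind of library as a term, ERY-II against ERY-I 35 in Xist-positive libraries, and ERY-VI against ERY-V 0. Without libraries rich in neutrophil markers, a setting chosen after seeing the data, the counts were 27 for ERY-II against ERY-I, 6 for ERY-V against ERY-IV and 0 for ERY-VI against ERY-V. That setting leaves out all Y-positive libraries of ERY-I and ERY-V, so it cannot tell the markers from the kind of library. Apart from the scaling, the cause of these moves was not tested.

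Leaving out 1 library at a time gave 7 to 63 calls for CFU-E against BFU-E, 7 to 19 for ERY-I, 14 to 20 for ERY-II, 0 to 0 for ERY-III, 0 to 1 for ERY-IV, 0 to 3 for ERY-V and 0 to 2 for ERY-VI. In WT it gave 62 to 69 for CFU-E, 57 to 60 for ERY-I-II, 58 to 62 for ERY-III-VI and 6 to 24 for ERY-V-VI. For GS-KO it gave 13 to 25 in BFU-E, 16 to 23 in CFU-E, 42 to 48 in ERY-I-II, 11 to 14 in ERY-III-VI, 9 to 24 in ERY-V-VI and 44 to 49 for the interaction. ERY-IV against ERY-III had 1 call without ERY-III replicate 4 or ERY-IV replicate 4. ERY-V against ERY-IV had 0 calls without ERY-IV replicate 1, 2 or 4 or ERY-V replicate 1, 2 or 3, and 3 without ERY-V replicate 4, 6 or 7. ERY-VI against ERY-V had 0 calls without ERY-VI replicate 1 and 2 without ERY-V replicate 6 or ERY-VI replicate 2 or 4. Total counts reached their lowest in ERY-VI, where as few as 49 members had a count in a library; the part of depth was not tested.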
